A study of Mus musculus with 2 samples.

Results

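The 7 genes that encode the subunits of the NMDA receptor were examined in the left cerebral cortex of newborn mice: Grin1, Grin2a, Grin2b, Grin2c, Grin2d, Grin3a and Grin3b. They were chosen by name, not by a measured value, from 55536 annotated genes, and together they have 39 annotated transcripts, 14 of them from Grin1. Both libraries were total RNA-seq libraries from female B6CASTF1/J mice at postnatal day 4, hybrids (F1) whose parents were C57BL/6J and CAST/EiJ, with no treatment and no engineered allele named in the labels. They form 1 group with n = 2. The labels number the samples as separate females and as biological replicates 1 and 2 but give both the same donor identifier. Whether that identifier stands for an animal or for the strain is not clear, so the spread between the libraries may not be that of 2 animals. The input was 300 ng of RNA per library, to which ERCC spike-in transcripts had been added.

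NMDA receptors are glutamate-gated cation channels built from GluN1, the product of Grin1, which every receptor contains, and partners from the GluN2 or GluN3 families. GluN1 binds the co-agonist glycine or D-serine, the GluN2 subunits bind glutamate, and GluN3 subunits bind glycine. At rest the pore is blocked by magnesium, so the channel opens fully only when glutamate arrives at a depolarised membrane, and the calcium it admits drives synapse maturation and plasticity. In rodent cortex GluN2B is known as the main GluN2 subunit around birth, and GluN2A is known to become more prominent over the following weeks. With 1 age in the series, that change over time could not be examined here.

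The protein made from Grin1 differs with 3 splicing choices, and the annotation places all of them in coding sequence on chromosome 2, minus strand, of GRCm38 (mm10). The N1 cassette is exon 4 of the longest form, 63 bases at chr2:25311343-25311405, and adds a basic loop to the extracellular amino-terminal domain. The C1 cassette is exon 20, at chr2:25294438-25294548, in the intracellular tail. The last exon begins either with the C2 segment, whose 114 coding bases lie at chr2:25292371-25292484, or, where splicing removes 356 bases, with the C2' end, 66 coding bases at chr2:25292063-25292128. Grin3a has a 60-base coding insert at chr4:49665566-49665625, also on the minus strand. These 5 stretches are printed because the shares of transcripts given below turn on them; they were read from the GENCODE M21 transcripts, 5′ to 3′. Capitals mark, in C1, an in-frame run of 3 arginine codons, known in rat GluN1 as part of a signal that holds the subunit in the endoplasmic reticulum. In C2', capitals mark the last 4 codons, which encode the end that binds PDZ domains in rat GluN1. In the Grin3a insert they mark the final 2 bases, the letters found at the end of most introns.
Grin1 N1: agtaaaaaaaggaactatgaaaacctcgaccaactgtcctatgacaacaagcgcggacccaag
Grin1 C1: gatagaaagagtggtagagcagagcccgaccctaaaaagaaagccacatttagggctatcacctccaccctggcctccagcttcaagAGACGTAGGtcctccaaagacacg
Grin1 C2: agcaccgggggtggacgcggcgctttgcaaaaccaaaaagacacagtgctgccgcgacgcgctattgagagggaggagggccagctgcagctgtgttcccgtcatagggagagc
Grin1 C2': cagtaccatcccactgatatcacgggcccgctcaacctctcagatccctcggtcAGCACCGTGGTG
Grin3a insert: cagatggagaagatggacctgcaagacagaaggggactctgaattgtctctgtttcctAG

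The tables held 29310533 expected counts on annotated genes in replicate 1 and 28844674 in replicate 2, and 15304 of the 55536 genes were detected, that is, at a TPM (a level scaled by transcript length and library size) of at least 1 in both libraries. All 6 cortex markers were detected, with Slc17a7, the vesicular glutamate transporter of cortical excitatory neurons, at 142 ± 3.63 TPM (SD, n = 2). Of 4 cerebellar and hindbrain markers, Gabra6, En2 and Hoxb3 were at or below 0.24 TPM in both libraries, while Cbln1 had levels of 19.9 and 19.4 TPM. The 4 choroid plexus markers summed to 213.7 TPM in replicate 1 and 3.23 TPM in replicate 2, and the 3 blood markers to 326.9 and 41.7 TPM in the same order. Whether the difference in these markers touched the values of the NMDA receptor genes was not tested. Reads were counted against the C57BL/6J reference, and the effect of CAST/EiJ variants on any level was not tested.

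Grin2b was the most abundant of the 7 genes, followed by Grin1, Grin3a, Grin2a and Grin2d; Grin2c lay at the limit of detection, and Grin3b was represented by a handful of reads. The 5 leading genes were detected. Summed TPM over the 7 genes was 297.6 in replicate 1 and 335.6 in replicate 2, a mean of 317 ± 26.8 TPM. The levels are those of bulk tissue, in which fewer cells of a type and less RNA per cell cannot be told apart.

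Grin1, which encodes the obligatory subunit, lies on chromosome 2 (25291181 to 25319187, minus strand; ENSMUSG00000026959.13). Its level was 85.5 TPM in replicate 1 and 92.4 TPM in replicate 2, from 6211 and 6351 expected counts. The mean was 88.9 ± 4.89 TPM, and Grin1 ranked 1237 and 1143 among 22028 protein-coding genes by TPM in replicates 1 and 2.

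Among the genes of the glutamate-binding subunits, Grin2b (chromosome 6, 135713233 to 136173511, minus strand; ENSMUSG00000030209.14) had 128.9 TPM in replicate 1 and 150.4 TPM in replicate 2, from 35224 and 39235 counts. It ranked 690 and 544 among protein-coding genes. GluN2B gives the channel slow closing kinetics, and its tail binds the kinase CaMKII. Grin2a (chromosome 16, 9567898 to 9995560, minus strand; ENSMUSG00000059003.12), whose product gives faster kinetics, had 20.4 TPM in replicate 1 and 26.0 TPM in replicate 2, from 3141 and 3169 counts. Grin2d (chromosome 7, 45831883 to 45878378, minus strand; ENSMUSG00000002771.12), whose product is known from interneurons and has weak magnesium block and very slow closing, had 16.7 and 19.6 TPM, from 1605 and 1790 counts. These genes thus lay well above detection in both libraries, unlike the last member of the family. Grin2c (chromosome 11, 115249169 to 115267243, minus strand; ENSMUSG00000020734.13), which is best known from the adult cerebellum, had 1.20 TPM in replicate 1 and 0.98 TPM in replicate 2, from 102 and 78 counts. The value in replicate 2 is just under the limit of 1 TPM, so Grin2c was not called detected.

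Of the summed TPM of the 4 Grin2 genes, Grin2b took 76.7% ± 0.503, Grin2a 12.7% ± 0.686, Grin2d 9.97% ± 0.0278 and Grin2c 0.608% ± 0.155 (SD, n = 2). On the log2(TPM + 1) scale, Grin2b exceeded Grin2a by 2.60 in replicate 1 and 2.49 in replicate 2. Grin1 lay below the summed Grin2 genes by 0.96 in replicate 1 and 1.08 in replicate 2 on the same scale (log2 ratio -1.02 ± 0.09). Grin2b alone exceeded Grin1 by 0.64 ± 0.08. That excess was smaller, 0.49 ± 0.06, in a second deposited table and 0.35 ± 0.11 with full-length coding transcripts alone, both described below. The transcript level of the obligatory subunit was therefore below that of its GluN2 partners in both libraries. With 2 libraries a sign-flip test cannot give a p below 0.5, so these ratios carry no test.

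The glycine-binding GluN3 subunits lower the calcium permeability and magnesium sensitivity of receptors that contain them. Grin3a (chromosome 4, 49661611 to 49845744, minus strand; ENSMUSG00000039579.15), known for high levels in the early postnatal forebrain, had 44.9 TPM in replicate 1 and 46.1 TPM in replicate 2, from 5855 and 5800 counts. The mean was 45.5 ± 0.898 TPM, and the log2(TPM + 1) ratio of Grin3a over Grin2a was 1.10 in replicate 1 and 0.80 in replicate 2. Grin3b (chromosome 10, 79970715 to 79977190, plus strand; ENSMUSG00000035745.9), known from motor neurons, had 0.06 TPM in replicate 1 and 0.15 TPM in replicate 2. These came from 3 and 4 counts, with exact 95% Poisson intervals of 0.619 to 8.77 and 1.09 to 10.2 counts that cover counting error only. These few counts fell on its 3 annotated transcripts without a steady leader: Grin3b-201 took 77.2% and 0%, Grin3b-202 22.8% and 31.8%, and Grin3b-203 0% and 68.2% of its TPM in replicates 1 and 2. The log2(TPM + 1) ratio of Grin3a over Grin3b, 5.40 ± 0.06, is mostly set by the pseudocount of 1.

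**Figure D1:**
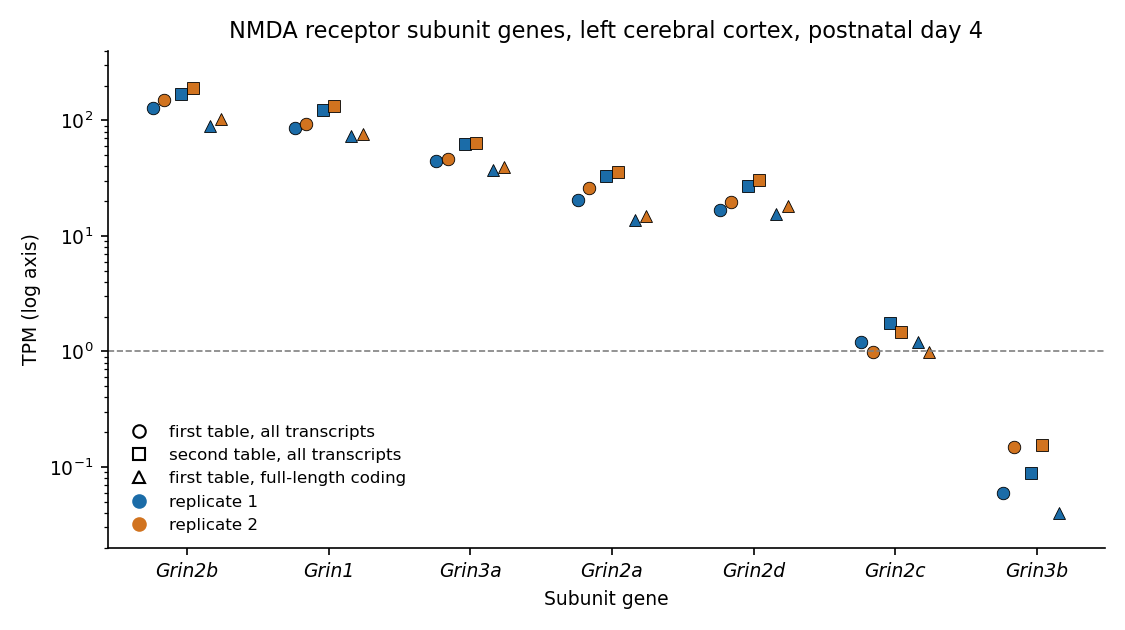
TPM of each subunit gene on a log axis; each point is 1 library, circles are gene levels of the first deposited table, squares those of the second, and triangles the first table's full-length coding transcripts alone. Grin2b lies highest at 128.9 and 150.4 TPM, Grin2c sits at the dashed detection line of 1 TPM, and Grin2a and Grin2d change places in the triangles; the full-length value of Grin3b in replicate 2 is 0 and cannot be drawn on a log axis.

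The order of the 7 genes was the same in both libraries, and no gene's range over the libraries overlapped that of its neighbour in the order. The closest neighbours were Grin2a and Grin2d, at 20.4 and 26.0 TPM against 16.7 and 19.6 TPM. A second deposited table, described as derived from the reads themselves, gave higher values and the same order. Its values in replicates 1 and 2 were 168 and 192 TPM for Grin2b, 122 and 132 for Grin1, and 62.5 and 63.5 for Grin3a. Grin2a had 32.8 and 35.5 TPM there, and Grin2d 27.2 and 30.2 TPM. The place of Grin2a depended on which transcripts were counted. In an alternative added after the levels were seen, in which each gene kept only its full-length coding transcripts (those with at least 90% of the gene's longest coding sequence), Grin2d lay above Grin2a, at 15.5 and 18.2 TPM against 13.7 and 14.8 TPM. The second table gave the same exchange of places for those transcripts, with Grin2d at 22.0 and 25.6 TPM and Grin2a at 19.7 and 20.8 TPM.

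Counts and levels gave the genes different weights. Grin2b held 67.6% of the summed expected counts of the 7 genes in replicate 1 and 69.5% in replicate 2, but 43.3% and 44.8% of their summed TPM. Grin1 held 11.9% and 11.3% of the counts but 28.7% and 27.5% of the TPM. The main transcript of Grin2b is long: Grin2b-201 measures 24060 bases, 20716 of them in its last exon, whereas Grin1-201 measures 4238 bases, so that a Grin2b molecule yields more fragments than a Grin1 molecule.

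All 8 coding transcripts of Grin1 are full-length, and they are the 8 possible combinations of N1, C1 and C2 or C2'. Together they held 85.8% of Grin1 TPM in replicate 1 and 82.9% in replicate 2. Grin1-201, which lacks N1 and has C1 and C2, was the leading transcript, with 37.5% of Grin1 TPM in replicate 1 and 41.5% in replicate 2. Grin1-205, which lacks N1 and C1 and ends in C2', took 16.6% and 16.1%. Grin1-206, without N1 and with C1 and C2', took 10.4% and 10.1%, and Grin1-202, without either cassette and with C2, took 12.3% and 7.22%. The forms without N1 led in both libraries.

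In all, transcripts with the N1 cassette held 9.04% of Grin1 TPM in replicate 1 and 7.89% in replicate 2 (8.47% ± 0.816). Among the 8 full-length transcripts the share with N1 was 10.03% ± 0.726. The second table gave 10.9% and 8.79% of Grin1 TPM. The low share of N1 was thus close between libraries and tables, but its division over the 4 transcripts that carry N1 was not. These 4 are also annotated with a later start, at base 92 of the joined exons. The forms without N1 start at base 67 or 0, so reads from the outermost bases can only go to forms without N1. Both tables rest on this annotation, and its effect on the N1 share was not tested. Grin1-204, with N1, C1 and C2, had 619 expected counts in replicate 1 and 13.5 in replicate 2, while Grin1-203, with N1 and C2 but no C1, had 0.43 and 423 counts. The deposited posterior standard deviations of these counts were 188 and 153 for Grin1-204 and 125 and 132 for Grin1-203. The share of C1 among N1 transcripts came out at 99.9% in replicate 1 and 22.9% in replicate 2 in the first table, at 67.5% and 58.9% from its posterior means, and at 82.7% and 80.1% in the second table. N1 and C1 lie far apart along the transcript, and whether they occur together in a molecule could not be read from these estimates. Grin1-207, with N1 and C2' and no C1, was at 0 TPM in both libraries of both tables, and Grin1-208, with N1, C1 and C2', held 0.10% and 1.61%. Posterior means of the first table gave Grin1-207 1.33% and 0.95% and Grin1-208 2.58% and 2.23%, so neither the 0 nor the 0.10% is a steady value.

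**Figure D2:**
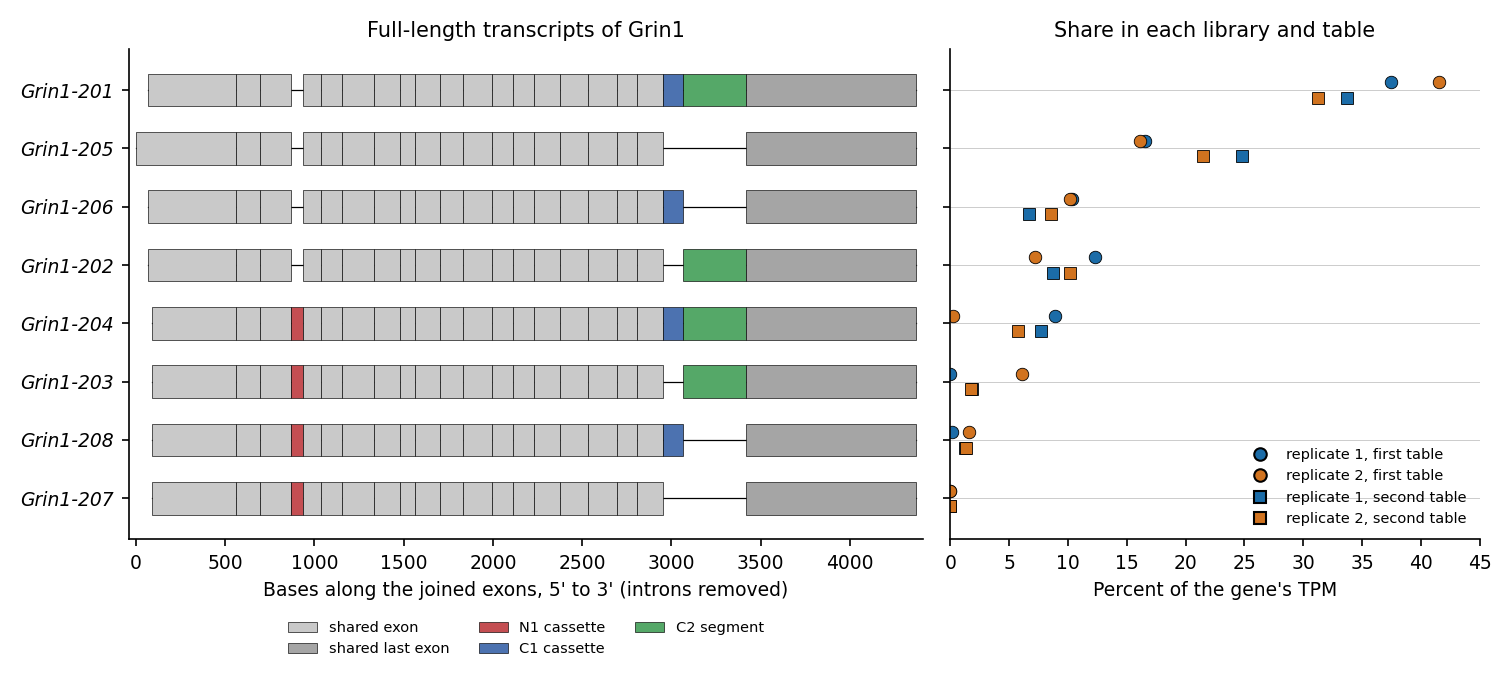
Left, the 8 full-length Grin1 transcripts to scale in bases with introns removed and the alternative segments coloured; right, each transcript's percent of Grin1 TPM, with colour for the library, circles for the first table and squares for the second. Grin1-201 leads at 37.5% and 41.5%, and the circles of Grin1-203 and Grin1-204 exchange places between the libraries.

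Transcripts with C1 held 56.9% of Grin1 TPM in replicate 1 and 53.5% in replicate 2 (55.2% ± 2.41), and 65.4% ± 1.28 of the TPM of the 8 full-length transcripts. The second table gave a lower share of C1, 49.4% and 46.9% of Grin1 TPM. C2 was the more common end in both libraries, with 67.4% ± 1.49 of the full-length TPM, and C2' took the other 32.6% ± 1.49. Among the full-length transcripts, the arginine codons in capitals above were present in the larger part in both tables (58.3% ± 0.150 in the second), and the PDZ-binding end of C2' in the smaller part.

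C2' took a smaller share of the transcripts with C1 than of those without it. Among transcripts with C1, C2' took 18.4% in replicate 1 and 22.0% in replicate 2, whereas among transcripts without C1 it took 57.3% and 54.8%. The second table gave 16.1% and 21.1% among transcripts with C1 and 70.1% and 64.2% among those without. The groups did not overlap between libraries or tables. C1 and the last exon are neighbours in the transcript. Grin1-205 made up the whole C2' share without C1, since Grin1-207 was at 0 TPM in both tables. It is also the only form annotated from base 0 of the joined exons. The others start at base 67 or 92, so reads from the outermost bases can go to Grin1-205 alone. Whether this shaped the difference was not tested, and both tables share the annotation. The shares are estimates from short reads, and with 2 libraries this difference carries no test.

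The 6 noncoding transcripts of Grin1 held 14.2% of its TPM in replicate 1 and 17.1% in replicate 2, from 509 and 691 expected counts. Most of those counts fell on Grin1-214 (288 and 415 counts, 5.19% and 7.28% of TPM) and Grin1-211 (165 and 222 counts, 3.39% and 4.43%). Both start at the 5′ end of the gene and keep sequence that the coding forms splice out. Grin1-213 held 3.92% and 3.21%, Grin1-212 1.44% and 2.19%, Grin1-209 0.29% and 0%, and Grin1-210 0% in both libraries. Over all protein-coding genes, noncoding transcripts took 15.8% of TPM in replicate 1 and 17.5% in replicate 2, so the Grin1 share was close to that of the libraries as a whole.

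The other subunit genes differed in how much of their TPM came from full-length coding transcripts. The share was 92.7% ± 0.0424 for Grin2d, 84.3% ± 2.03 for Grin1, 83.9% ± 1.52 for Grin3a, 69.0% ± 0.198 for Grin2b and 61.9% ± 7.02 for Grin2a. For Grin2c it was 100% by construction, since both annotated transcripts of that gene are full-length. The median over 11875 detected protein-coding genes with several transcripts was 71.0%. Short transcripts weigh more in TPM than in counts. The 4 shorter coding transcripts of Grin2b held 29.4% and 30.4% of its TPM but 1.63% and 2.42% of its counts. Grin2b-206, which has 601 bases and covers a small part of the coding sequence, alone took 18.8% of Grin2b TPM in replicate 1 and 19.0% in replicate 2 from 236 and 266 counts. Grin2b-205 took 4.15% and 10.1%.

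**Figure D3:**
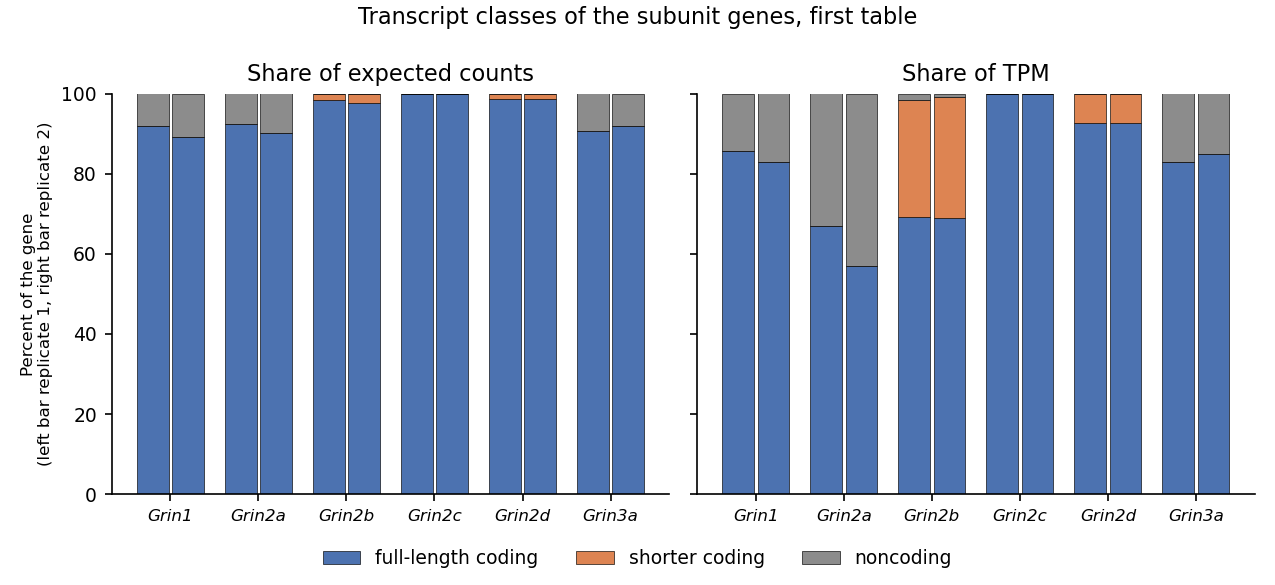
Stacked bars of the share of each gene's expected counts (left) and TPM (right) in full-length coding, shorter coding and noncoding transcripts, with replicate 1 as the left bar of each pair and replicate 2 as the right. The shorter coding transcripts of Grin2b hold 1.63% and 2.42% of its counts but 29.4% and 30.4% of its TPM; Grin3b, with 3 and 4 counts, is not drawn.

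For Grin2a, the counts of the libraries were nearly equal, 3141 and 3169, while the levels were 20.4 and 26.0 TPM, because more counts were given to short transcripts in replicate 2: the mean length behind the gene level was 8013 bases in replicate 1 and 6695 bases in replicate 2. The 3 noncoding transcripts held 33.1% of Grin2a TPM in replicate 1 and 43.1% in replicate 2, from 7.73% and 9.91% of the counts. Grin2a-203 and Grin2a-204 are annotated as retained-intron transcripts, and whether their reads came from unspliced RNA was not tested. Grin2a-203 held 9.66% and 16.3%, Grin2a-204 11.98% and 10.7% and Grin2a-205 11.5% and 16.03%, and the second table gave Grin2a-205 27.9% and 22.6%. Among the full-length forms, Grin2a-206, with a last exon of 11729 bases, took 62.9% and 60.0% of full-length TPM. Grin2a-202 and Grin2a-201 encode the same length of coding sequence with shorter last exons of 1886 and 1800 bases. The first table gave Grin2a-202 19.8% of the gene's TPM in replicate 1 and 0% in replicate 2, and Grin2a-201 5.06% and 22.8%, whereas the second table gave Grin2a-202 25.02% and 25.5% and left Grin2a-201 at 0%. These forms could not be separated from each other, and their sum is the steadier value.

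Long last exons also led for Grin2b. Grin2b-201 held 76.3% of full-length Grin2b TPM in replicate 1 and 76.1% in replicate 2, and Grin2b-202, whose last exon has 4123 bases, held the rest. For Grin2d, Grin2d-201 took 57.7% and 55.04% of the gene's TPM and Grin2d-203 35.1% and 37.7%, and the short Grin2d-202 took 7.25% and 7.31%, but 19.0% and 15.4% in the second table. For Grin3a, the form with the 60-base insert printed above, Grin3a-202, took 24.3% of the full-length TPM in replicate 1 and 19.7% in replicate 2, and 25.8% and 19.0% in the second table. The form without the insert, Grin3a-201, was the major one in both libraries. In rat, the insert lies in the intracellular tail of the subunit. The noncoding Grin3a-203 held 16.2% and 13.5% of Grin3a TPM. Grin2c-201 led Grin2c with 69.5% and 78.4%, and took 58.7% and 49.3% by the second table's estimates; Grin2c-202 held the rest in each.

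Several genes overlap the subunit genes on the opposite strand, and no source used here states whether strand was used in counting. The antisense gene Grin1os had 0 and 1 counts. The antisense gene Gm45441, which overlaps the 3′ end of Grin2d, had 3.08 and 3.66 TPM. Kdelr1, at 55.1 and 49.1 TPM, overlaps the span of the short Grin2d-202 but not that of Grin2d-201 or Grin2d-203. Grin2d-202 had 21.4 and 24.1 counts in replicates 1 and 2. Tmem259 overlaps Grin3b and had 63.6 and 62.9 TPM, and without strand the few Grin3b counts cannot be told apart from its reads. Ppp3r2 lies within Grin3a on the same strand, with 0.56 and 1.13 TPM.

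No subunit gene was called different between the libraries. The rounded counts of 18492 genes, each with 20 or more counts over both libraries, entered an exact two-sided binomial test conditional on the gene's total. A call needed a Benjamini-Hochberg adjusted p under 0.05 together with a log2 ratio beyond 1 in either direction. Counting error is the only error in this test, which sets library against library and no condition against another. It called 0 of the 6 subunit genes tested, against 2.88% of all genes tested. An unadjusted p under 0.05 was found for 2 of the 6 and for 6206 of the 18492 genes tested, which are similar shares. Grin3b, with 7 counts over both libraries, was not tested. At adjusted p alone it passed 2 of 6, both lower in replicate 1, against 23.9% of all genes (12.7% lower and 11.2% higher in replicate 1). Grin2b was 0.902 times as high in replicate 1 as in replicate 2 (95% interval 0.889 to 0.915, adjusted p = 4.91e-42 by the exact test), and Grin2d 0.901 times (0.842 to 0.965, adjusted p = 0.0148 by the exact test). At the depth of Grin2b, a difference of this size in Grin2b passes a test of counting error. The other 4 tested genes had adjusted p-values between 0.211 and 0.973 by the exact test, with log2 ratios of -0.02 for Grin1, -0.01 for Grin2a, 0.02 for Grin3a and 0.39 for Grin2c. The interval for Grin2c, 0.969 to 1.79 times, allows a larger difference than those of the abundant subunits. The median size of the log2 ratio was 0.09 over the 6 genes and 0.14 over all genes tested.

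The other ionotropic glutamate receptor families were the nearest comparison. The 4 AMPA receptor genes, which encode the channels of fast excitatory transmission, summed to 311.8 TPM in replicate 1 and 362.0 TPM in replicate 2. The log2 ratio of the NMDA over the AMPA sum was -0.07 and -0.11, and with full-length coding transcripts alone it turned to 0.11 and 0.05, so the direction between the families was not fixed. Gria2, whose edited product makes the channel impermeable to calcium, was at 177 ± 27.4 TPM, Gria1 at 86.2 ± 2.83, Gria4 at 40.4 ± 1.41 and Gria3 at 32.8 ± 3.85 TPM. Each family thus had a leading gene, Grin2b and Gria2, and a broad range below it.

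The 5 kainate receptor genes summed to 204.7 TPM in replicate 1 and 234.3 TPM in replicate 2, and the log2 ratio of the NMDA over the kainate sum was 0.53 ± 0.02. Grik5, a high-affinity subunit that needs a partner, was at 104 ± 7.16 TPM. Grik2 was at 54.0 ± 9.48, Grik3 at 32.8 ± 1.90, Grik1 at 20.7 ± 2.47 and Grik4 at 8.38 ± 0.0566 TPM. Grid1, a delta receptor gene whose product acts as a synaptic organiser, was at 24.3 ± 1.58 TPM. All 11 genes of these 3 families were detected, against 5 of the 7 NMDA receptor genes.

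Genes that anchor, modify, supply and act downstream of the receptor formed 7 lists with 129 members, of which 127 were detected. None of the 127 members tested was called different between the libraries by the exact test, where 2.88% of all genes tested were. The median size of the log2 ratio lay between 0.07 and 0.12 in each of the 7 lists, against 0.14 over all genes tested.

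Scaffolds and anchoring proteins, which hold the receptor in the postsynaptic density, were all detected, 18 of 18, with a median of 54.9 TPM. Dlg4, which encodes PSD-95, was highest at 247 ± 1.44 TPM, above every subunit gene. Shank1, a deeper scaffold, was at 159 ± 10.9 TPM, Dlg2, which encodes PSD-93, at 150 ± 9.94 TPM and Dlgap4 at 150 ± 3.14 TPM. Dlg1 and the actin crosslinker Actn2 were lowest, at 22.4 ± 4.24 and 6.24 ± 0.156 TPM. At adjusted p alone, 3 of the 18 passed as higher and 10 as lower in replicate 1, where 11.2% and 12.7% of all genes did.

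All 16 genes of receptor trafficking and turnover were detected, with a median of 61.8 TPM. Ap2m1, a subunit of the clathrin adaptor that takes receptors off the membrane, was at 442 ± 14.5 TPM. Rab11a, of recycling endosomes, was at 210 ± 1.22 TPM, Tspan7 at 204 ± 10.6 TPM and the ubiquitin ligase gene Nedd4 at 196 ± 2.71 TPM. Fbxo2, a ligase component that recognises glycosylated GluN1, was at 6.59 ± 0.0707 TPM, and Kif17, the motor known to carry GluN2B vesicles, at 4.33 ± 0.438 TPM. By adjusted p without the size limit, 5 of 16 passed as higher in replicate 1 and 1 as lower, where 11.2% and 12.7% of all genes did.

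The 24 kinase and phosphatase genes were all detected, and their median of 82.4 TPM was above that of the other 6 related lists. Ppp2r1a, the scaffold of protein phosphatase 2A, was at 325 ± 16.5 TPM. Camk2b was at 298 ± 4.99 TPM, Cdk5r1, the activator of Cdk5, at 198 ± 11.9 TPM and Ppp3cb, a catalytic subunit of calcineurin, at 174 ± 3.64 TPM. The Src-family kinase genes Yes1 and Lyn were lowest, at 9.74 ± 1.36 and 3.77 ± 0.240 TPM. The test without the size limit passed 10 of 24 as higher in replicate 1 and 0 as lower, against 11.2% higher and 12.7% lower over all genes. The differences were small, with a median size of the log2 ratio of 0.07, against 0.14 over all genes tested.

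Downstream signalling genes were detected in 18 of 18 cases, with a median of 48.9 TPM. Calm2 and Calm3, which encode a sensor of the calcium that enters through the receptor, were at 935 ± 31.7 and 681 ± 18.4 TPM. Trpm4 and Rasgrf1 were lowest, at 14.3 ± 3.52 and 14.2 ± 0.453 TPM. At adjusted p alone, 3 of 18 passed as higher in replicate 1 and 5 as lower, where 11.2% and 12.7% of all genes did.

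Of the 18 genes of co-agonist supply and glutamate uptake, 16 were detected, and the median was 16.6 TPM. The glutamate transporter genes Slc1a3 and Slc1a2 were at 109 ± 3.51 and 107 ± 2.06 TPM, the neutral amino acid transporter gene Slc1a4 at 49.1 ± 1.30 TPM and the neuronal glutamate transporter gene Slc1a1 at 36.7 ± 2.88 TPM. The undetected members were Dao, the enzyme that degrades D-serine, at 0.04 and 0.13 TPM, and Slc6a5, the neuronal glycine transporter of inhibitory terminals, at 0.04 and 0.02 TPM. On adjusted p alone, 2 of the 16 tested passed as higher in replicate 1 and 0 as lower, and the share higher was near the 11.2% of all genes (12.7% were lower).

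All 16 genes listed as regulators of subunit expression were detected, with a median of 16.0 TPM. Dnmt3a, a DNA methyltransferase, was at 95.6 ± 9.64 TPM, Reln at 81.8 ± 4.04, and Cpeb4 at 72.1 ± 2.01 TPM. The activity-induced genes Npas4 and Bdnf were lowest, at 2.65 ± 1.07 and 2.50 ± 0.0424 TPM. Without the size limit, 5 of 16 passed as lower in replicate 1 and 0 as higher, against 12.7% lower and 11.2% higher over all genes.

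The 19 genes of RNA-binding proteins listed for Grin1 splicing were all detected, with a median of 80.9 TPM. Hnrnpa1 was at 350 ± 9.97 TPM, Celf2 at 321 ± 41.4, Hnrnph1 at 238 ± 21.03 and Rbfox2 at 201 ± 9.28 TPM. Mbnl2 was at 18.3 ± 3.08 TPM and Khdrbs2 at 12.8 ± 2.48 TPM. Reads of Hnrnpa1, Calm2 and Calm3 can be shared with similar copies elsewhere in the genome, so these levels are uncertain. At adjusted p alone, 2 of 19 passed as higher in replicate 1 and 4 as lower, where 11.2% and 12.7% of all genes did.

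**Figure D4:**
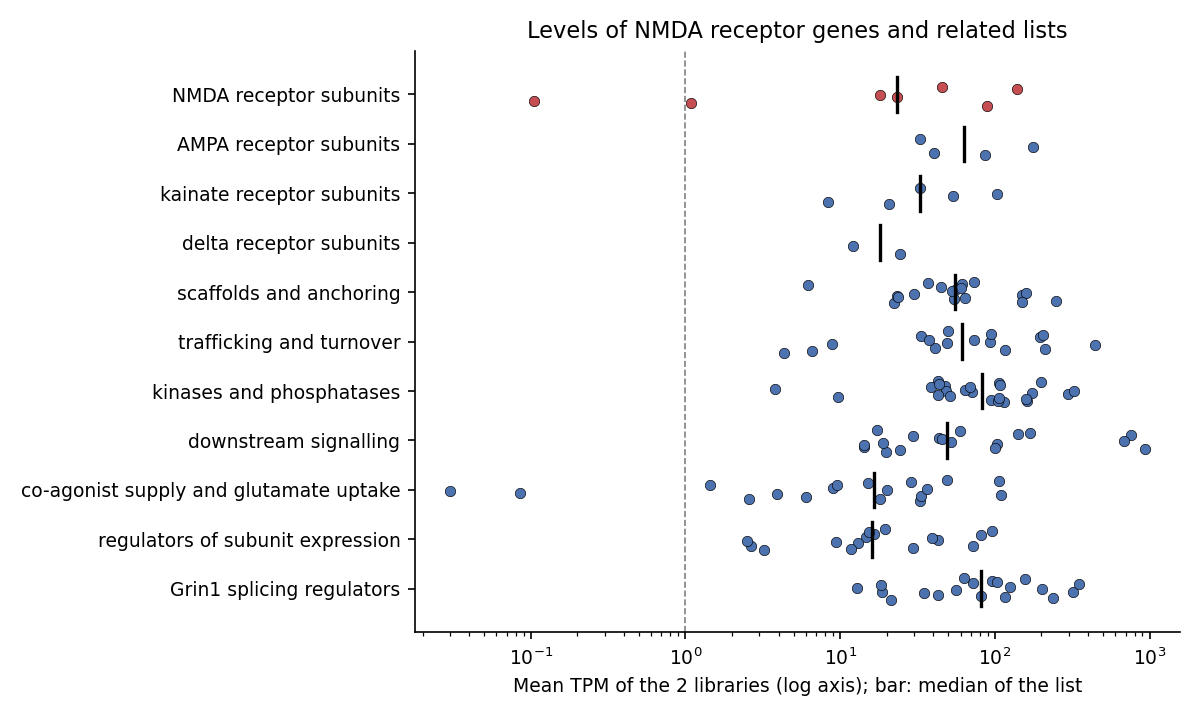
Mean TPM over the 2 libraries (log axis) of each gene in the NMDA receptor family, the other ionotropic glutamate receptor families and the 7 related lists; each point is 1 gene, black bars are list medians and the dashed line is 1 TPM. The 7 NMDA receptor genes run from 0.105 TPM for Grin3b to 139.6 TPM for Grin2b, with a median of 23.2 TPM (Grin2a), and Calm2 stands at the right end.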

How the data were processed

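Total RNA from left cerebral cortex was sequenced in 2 libraries of 1 group. Each had a gene and a transcript table, called the first table here, and another transcript table, called the second. The file descriptions deposited by the authors derive the first table from transcriptome alignments and the second from the reads themselves, with assembly mm10 and GENCODE M21. Tools, versions and strand settings were not given in the sources used here; the column names are those of RSEM and kallisto. The first table holds expected counts, in which the authors split shared reads between transcripts, per the file headers, and, as deposited by the authors, a posterior standard deviation of each count, a score of its uncertainty where reads are shared. The second holds estimated counts, as deposited. Deposited TPM values are scaled per effective length in both. Deposited FPKM values were copied but not used for a result. The deposited percent values give each transcript's share of its gene's TPM.

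Spike-ins and 26345 other entries without an annotated gene were left out of 81881. Names and structures came from GENCODE M21 on GRCm38. Counts were rounded for the binomial test, which used edgeR 4.0.16 TMM library sizes (R 4.3.3); 0.5 was added to each count in log2 ratios. Intervals of count ratios are exact 95% intervals and cover counting error only. With 1 library on each side, no test between groups could be made. Alternatives were the second table, TPM over protein-coding genes alone, a pseudocount of 0.1, posterior means, DESeq2 1.42.0 size factors, no count minimum, adjusted p alone and, added later, full-length coding transcripts alone. The test was checked on simulated counts drawn with counting error only. That is the error the test assumes, so the check does not cover further variation between libraries. Other steps ran in matplotlib 3.10.9, pandas 2.3.3, scipy 1.17.1 and numpy 2.4.6 under Python 3.11.15.

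Named were all subunit genes, every Grin1 transcript, other transcripts with at least 10% of the gene's TPM in either library of either table, all members of the other receptor families, and of each list the 4 highest and 2 lowest by mean TPM. The subunits and lists were chosen with earlier results of these data known. A few of the genes so chosen are not reported here. No protein sequence was used.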

Additional observations from a re-analysis of the deposited data

How the results depend on the processing

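With the second table the summed TPM of the 7 subunit genes was 434 against 317 in the first, the log2 ratio of Grin2b over Grin2a 2.36, that of Grin1 over the summed Grin2 genes -0.93, that of Grin3a over Grin3b 5.84, and the N1 and C1 shares of Grin1 TPM 9.82% and 48.1%. Scaling TPM over protein-coding genes alone gave a sum of 600.1 TPM and a Grin3a over Grin3b ratio of 6.19, and a pseudocount of 0.1 a Grin3a over Grin3b ratio of 7.83. With full-length coding transcripts alone the sum was 242 TPM, Grin2b over Grin2a 2.67, Grin1 over the summed Grin2 genes -0.77 and Grin3a over Grin3b 5.26, and the NMDA over AMPA ratio turned to 0.0781 against -0.0879. Posterior means gave an N1 share of 9.62%. The binomial test called 532 genes, 537 with DESeq2 size factors, 561 with no count minimum, 700 with the second table and 4421 at adjusted p alone; it called 0 subunit genes except at adjusted p alone, where it passed 2. Some of these shifts follow from the settings by construction, such as the rescaled sum, the lower full-length sum and the ratio at the smaller pseudocount. The cause of the other shifts was not tested.

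Without replicate 1 or replicate 2, the sum ranged from 297.6 to 335.6 TPM, Grin2b over Grin2a from 2.49 to 2.60, Grin1 over the summed Grin2 genes from -1.08 to -0.96, Grin3a over Grin3b from 5.36 to 5.43, NMDA over AMPA from -0.11 to -0.07, the N1 share from 7.89% to 9.04% and the C1 share from 53.5% to 56.9%. Each of these is the value of 1 library, with no test. No paired analysis was possible because there is 1 group. Of the 42 levels and shares of single genes and transcripts, 25 moved by more than the spread between replicates with the second table, and 11 of 35 shares did with posterior means. Depth limits Grin3b and Grin2c, and shared sequence limits the single transcripts of Grin1 and Grin2a.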
